A study of Mus musculus with 39 samples.

Results

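The genes for the nuclear-encoded subunits of oxidative phosphorylation were followed in CD68-rich plaque tissue of mice given 1 of 3 inhibitor-loaded nanoparticles or PBS. They were chosen by symbol: Nduf genes other than the Ndufaf assembly factors, Sdha to Sdhd, and symbols starting with Uqcr, Cox4 to Cox8 or Atp5. The rule found 85 of the 24062 gene symbols counted, of which 38 belong to complex I, 4 to complex II, 8 to complex III, 18 to complex IV and 17 to complex V. Of these, 75 passed the filter on low counts among 10411 genes tested: 36, 4, 8, 11 and 16 in the same order. A symbol is not always a role. Atp5s and Atp5sl are not structural subunits of ATP synthase, Ndufa4 is now assigned to complex IV, and Cox7a2l is best known as a factor that joins complexes III and IV.

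Oxidative phosphorylation takes place in the inner mitochondrial membrane. Complex I oxidises NADH and complex II oxidises succinate, both pass electrons through coenzyme Q to complex III and by cytochrome c to complex IV, and complex V, the ATP synthase, makes ATP from the proton gradient. Most subunits are encoded in the nucleus, and a few at the core of complexes I, III, IV and V are encoded in mitochondrial DNA. In macrophages the balance between oxidative phosphorylation and glycolysis is known to shift with inflammatory activation, and mTOR and its target S6K1 are known regulators of growth. Of the 13 mitochondrially encoded subunits, 0 were listed in the files, so the values below are for nuclear genes alone.

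All 39 samples came from female Apoe-/- mice (B6.129P2-Apoe tm1Unc), bought at 8 weeks of age and fed a high-cholesterol diet for 12 weeks. Treatment began at 20 weeks of age with 4 injections into a vein within 7 days, and the mice were killed 24 hours later. The controls received PBS (10 samples). The treated groups had 10 samples for TRAF6i-HDL, 10 for mTORi-HDL and 9 for S6K1i-HDL, each inhibitor carried in high-density lipoprotein (HDL) particles at 5 mg/kg. In the protocol text the mTOR inhibitor is rapamycin, the S6K1 inhibitor is PF-4708671, the remaining particle is called CD40-HDL and the placebo is saline. No sample analysed here had the empty particle, so an effect of the carrier and an effect of the drug cannot be told apart. Areas rich in CD68, a macrophage protein, were cut by laser from aortic root sections of 6 µm, and the RNA was amplified before sequencing. The labels do not say that the samples of a group are separate animals, and p-values measure the spread between these samples, which may be in part technical.

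PBS libraries averaged 1388000 counts in genes and S6K1i-HDL libraries 4480000. The mean was 1837000 under TRAF6i-HDL and 3200000 under mTORi-HDL, so mean depth ran opposite to the summed subunit levels below. Detected genes averaged 12300 for PBS, 12670 for TRAF6i-HDL, 14000 for mTORi-HDL and 13760 for S6K1i-HDL. The part of depth in the results was not tested beyond the alternatives described below. Counts in genes ranged from 50091 to 6833491 per library, and 3 libraries were under 200000: PBS 9, TRAF6i-HDL 7 and S6K1i-HDL 1. One count was worth 12.6, 9.68 and 7.91 CPM (counts scaled to library size) in these, and a count of 0 (upper limit 3 counts, counting error only) allowed up to 37.9, 29 and 23.7 CPM. The subunit genes together held 167 to 17947 counts per library. All 16 macrophage markers examined were tested, and Cd68 averaged 583 to 935 CPM by group, a level the capture itself was guided by. Apoe, the disrupted gene, averaged 3.37 to 5.70 CPM by group. Heart muscle lies next to the aortic root and is rich in the subunit genes. Its 16 markers averaged 48.4 to 61.5 CPM in sum by group, of which Ttn alone averaged 34.6 CPM. The others averaged from 0.0272 CPM for Myh7 to 3.76 for Pln, and Myh6 averaged 1.73 with counts in 28 of 39 libraries. Markers of adipocytes averaged 0.308 to 0.993 CPM in sum over 8 genes, with Lep at 0. Rn45s, which encodes the ribosomal RNA precursor, took a mean of 37.0% ± 10.3 of gene counts in S6K1i-HDL (SD, n = 9) and 12.95% ± 10.89 in PBS (n = 10). Its mean share was 23.1% ± 7.81 in mTORi-HDL (n = 10) and 17.8% ± 8.30 in TRAF6i-HDL (n = 10). The series lists mTORi-HDL replicates 1 to 4 and S6K1i-HDL replicates 1 to 6 together, and mTORi-HDL replicates 5 to 10 and S6K1i-HDL replicates 7 to 9 after them, and what separates the sets is not stated.

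Stretches upstream of some of the genes are shown because the genes are known to be served by a few shared regulators, NRF1, ETS factors (NRF2/GABP), YY1 and SP1. Sequences are from the RefSeq table for GRCm38.p6, the 250 bases before the annotated start, 5′ to 3′ on the strand of the gene, with matches to the searched letters in capitals. The searched letters, on both strands, were the palindromic consensus site for NRF1, CCGGAAG for ETS, AAGATGGCG for YY1 and GGGGCGGGG for SP1. ETS and YY1 matches can share bases where they abut, and the NRF1 letters can match both strands at 1 place. The table held 70 of the 85 genes. Cox6a1 and Atp5k show NRF1 letters with an ETS match in the first, Ndufa8 NRF1 and SP1 letters, and Atp5j YY1 and ETS letters. Cox7a2l and Cox7c, the genes that moved in opposite directions under mTORi-HDL, show none in this window.
Cox6a1 (chr5:115348959-115349208, minus strand): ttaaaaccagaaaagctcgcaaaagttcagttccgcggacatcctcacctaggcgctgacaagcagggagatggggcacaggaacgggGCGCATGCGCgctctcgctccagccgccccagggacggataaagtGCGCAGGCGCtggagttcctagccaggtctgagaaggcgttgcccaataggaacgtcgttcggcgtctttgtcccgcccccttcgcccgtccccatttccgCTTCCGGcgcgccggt
Ndufa8 (chr2:36049339-36049588, minus strand): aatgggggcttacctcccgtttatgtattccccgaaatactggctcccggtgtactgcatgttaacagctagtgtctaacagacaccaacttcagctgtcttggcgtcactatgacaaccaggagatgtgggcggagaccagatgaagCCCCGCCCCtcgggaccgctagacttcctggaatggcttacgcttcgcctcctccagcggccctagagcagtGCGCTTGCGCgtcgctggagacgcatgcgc
Atp5k (chr5:108434400-108434649, minus strand): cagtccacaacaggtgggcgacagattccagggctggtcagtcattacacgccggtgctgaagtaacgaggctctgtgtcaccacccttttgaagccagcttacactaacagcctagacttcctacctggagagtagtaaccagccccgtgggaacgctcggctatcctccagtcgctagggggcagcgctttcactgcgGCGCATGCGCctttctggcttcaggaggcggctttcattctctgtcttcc
Atp5j (chr16:84834977-84835226, minus strand): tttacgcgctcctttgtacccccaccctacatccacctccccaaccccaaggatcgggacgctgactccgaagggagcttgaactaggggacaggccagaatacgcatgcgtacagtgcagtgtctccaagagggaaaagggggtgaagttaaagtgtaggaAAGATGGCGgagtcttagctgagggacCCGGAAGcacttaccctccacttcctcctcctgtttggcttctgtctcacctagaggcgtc
Cox7a2l (chr17:83514334-83514583, minus strand): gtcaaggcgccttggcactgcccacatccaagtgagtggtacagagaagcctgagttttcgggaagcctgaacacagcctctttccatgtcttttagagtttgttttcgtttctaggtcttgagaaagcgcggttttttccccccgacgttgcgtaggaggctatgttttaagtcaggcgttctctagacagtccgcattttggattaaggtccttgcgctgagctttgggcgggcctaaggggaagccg
Cox7c (chr13:86046796-86047045, minus strand): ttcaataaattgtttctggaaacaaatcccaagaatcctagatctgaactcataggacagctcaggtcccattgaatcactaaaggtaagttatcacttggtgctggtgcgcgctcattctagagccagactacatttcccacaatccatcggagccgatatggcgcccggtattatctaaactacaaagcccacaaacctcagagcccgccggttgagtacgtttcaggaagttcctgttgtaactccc

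Over windows reaching 50 bases past the start, NRF1 letters were found in 24.3% of the 70 genes and in 5.19% of 27025 genes in the table. ETS letters were found in 22.9% against 9.93%, YY1 letters in 11.4% against 1.64%, and SP1 letters in 17.1% against 12.9%. The NRF1 share was 37.5% of 16 complex V genes and 7.69% of 13 complex IV genes. No match says only that these letters are not in this window.

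The most abundant subunit genes by level per length in PBS, in mean CPM per kilobase of transcript, were Atp5l (368.0), which encodes subunit g of ATP synthase, Cox7c (315.2), a small subunit of complex IV, and Atp5e (199.1), the epsilon subunit of the ATP synthase stalk. The levels of the complex II genes were 18.8 for Sdha, 26.9 for Sdhb, 18.3 for Sdhc and 33.6 for Sdhd on the same scale. The lowest tested gene was Atp5sl (2.79). Summed over genes in plain CPM, not per length, complex V was the highest complex in PBS at 1013 ± 206.1 (SD, n = 10) and complex II the lowest at 184.5 ± 33.2.

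The summed level of all subunit genes was highest in PBS and lowest in S6K1i-HDL. It ran from 2111 to 4107 CPM with a median of 2905 in PBS, and from 2265 to 4326 with a median of 2739 in TRAF6i-HDL. It ran from 1855 to 3273 with a median of 2465 in mTORi-HDL, and from 1526 to 2544 with a median of 1907 in S6K1i-HDL. The S6K1i-HDL samples sat at the lower end, and every pair of groups overlapped. The mean was 2023 ± 355.4 (SD, n = 9) in S6K1i-HDL and 2962 ± 543.1 (n = 10) in PBS. TRAF6i-HDL had 2825 ± 597.2 (n = 10), and mTORi-HDL 2533 ± 402.4 (n = 10). In this bulk tissue, fewer cells of a type and less RNA per cell cannot be told apart.

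**Figure D1:**
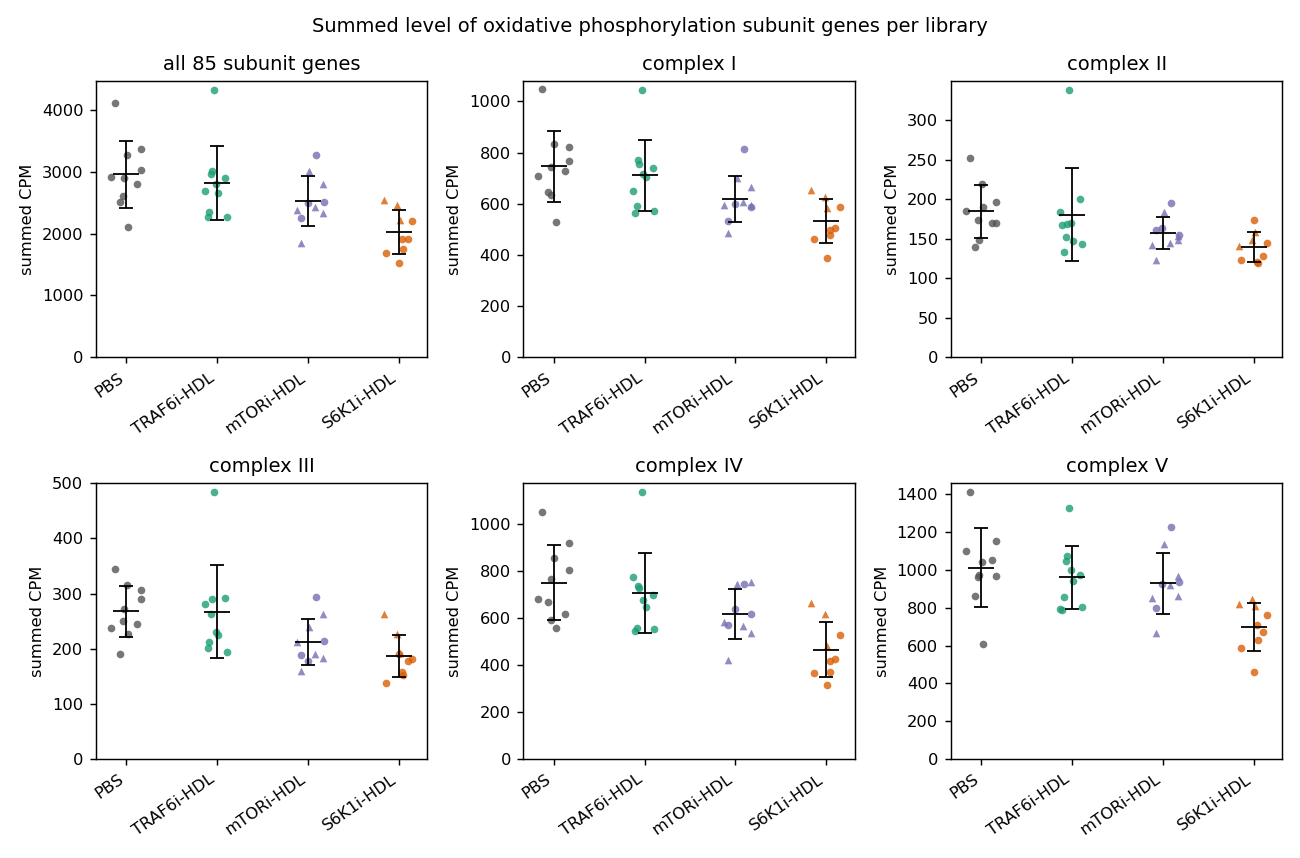
Summed CPM of the subunit genes per library (points), for all 85 genes and by complex, with group means and SD (bars). Triangles are mTORi-HDL replicates 5 to 10 and S6K1i-HDL replicates 7 to 9, which the series lists after the others. The S6K1i-HDL mean is the lowest of the 4 in every panel (2023 CPM for all genes), and the groups overlap in every panel.

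By complex, the order of group means was the same, PBS, TRAF6i-HDL, mTORi-HDL and then S6K1i-HDL. In that order, complex IV had means of 750.7 ± 158.3, 705.2 ± 171.4, 616.9 ± 106.9 and 465.3 ± 118.3 CPM. Complex V had 1013 ± 206.1, 960.8 ± 166.1, 928.9 ± 160.5 and 699.7 ± 127.0. Complex I had 746.4 ± 139.3, 711.3 ± 140.1, 618.4 ± 90.9 and 532.2 ± 87.1. Complex III had 267.7 ± 46.6, 267.1 ± 84.5, 212.0 ± 41.7 and 186.5 ± 38.4, and complex II 184.5 ± 33.2, 180.5 ± 59.0, 157.1 ± 20.4 and 139.6 ± 18.7. The groups overlapped in each complex, so the order is of means only.

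Under TRAF6i-HDL against PBS, 0 of the 75 subunit genes were called by edgeR's quasi-likelihood test at a Benjamini-Hochberg adjusted p under 0.05, where 0.0192% of all genes tested were. DESeq2 also called 0. At an unadjusted p under 0.05 there were 6 (11.1% of all genes): Ndufa9 and Atp5d with higher values, and Atp5l, Ndufb2, Ndufs3 and Ndufs4 with lower ones. The median log2 fold change was -0.079 over the 75, with 49 below 0, against 0.001 over all genes. The gene with the smallest p was Ndufa9, an accessory subunit of complex I, at 0.54 ± 0.22 (log2 fold change ± SE; adjusted p = 0.34). The smallest p in the other complexes were of Sdhc at -0.16 ± 0.19, Uqcrq at -0.25 ± 0.23, Cox7c at -0.34 ± 0.23 and Atp5l at -0.39 ± 0.18, with adjusted p from 0.39 to 0.797. The 95% interval for Sdha, the flavoprotein of complex II, was -0.19 to 0.33, and for Atp5a1, the alpha subunit of ATP synthase, -0.28 to 0.21.

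Under mTORi-HDL against PBS, 2 subunit genes were called, 1 in each direction, where 0.624% of all genes were called higher and 1.02% lower. Cox7a2l, the supercomplex factor, had 56.0 to 125 CPM with a median of 93.4 in PBS and 80.9 to 207 with a median of 148 in mTORi-HDL. Of the mTORi-HDL samples, 6 of 10 lay above the PBS range and the others within it. It rose by 0.65 ± 0.16 (log2; adjusted p = 0.017), with 8 of 10 samples above the PBS mean. Cox7c had 88.5 to 304 CPM with a median of 155 in PBS and 65.6 to 144 with a median of 86.1 in mTORi-HDL. Of the mTORi-HDL samples, 6 of 10 lay below the PBS range, and the groups overlapped. It fell by 0.88 ± 0.23 (adjusted p = 0.031), with 10 of 10 samples below the PBS mean. The count of 2 became 1 when PBS 1, 2, 3, 4 or 6 or mTORi-HDL 3, 4, 6, 8, 9 or 10 was left out. It became 4 without PBS 9, TRAF6i-HDL 8 or mTORi-HDL 1, 5 without mTORi-HDL 5, and 6 without PBS 8 or 10.

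The other tested genes had mostly lower values under mTORi-HDL without passing. Of the 75, 64 were below 0 with a median of -0.303, against 49.0% and 0.008 over all genes. An unadjusted p under 0.05 was found for 26, against 17.6% of all genes. Short genes were lower in general. All genes of up to 700 bases had a median of -0.255, and the 33 subunit genes of that length -0.384. At 700 to 1000 bases the medians were -0.172 and -0.293, and at 1000 to 1500 bases -0.12 and -0.306. The part of transcript length in these values was not tested beyond the offsets described below. Ndufb2 and Ndufa6, accessory subunits of complex I, had -0.99 ± 0.28 (adjusted p = 0.0506) and -0.78 ± 0.22 (0.0559). Sdhb, the iron-sulfur subunit of complex II, had -0.58 ± 0.18 (0.0679) and Atp5j2, the f subunit of ATP synthase, -0.71 ± 0.21 (0.0662). Atp5b and Atp5d, subunits of the catalytic head and central stalk of ATP synthase, had values above 0, at 0.20 ± 0.13 and 0.36 ± 0.17. The call of Cox7c was lost with a term for the Rn45s share, with one for detected genes and with no low-count filter (adjusted p up to 0.507), and was kept in 27 of the 39 single-library omissions, and that of Cox7a2l was lost with the Rn45s term (0.177). Markers of other cells moved in the same comparison. The endothelium list averaged 561.6 CPM in sum in PBS and 817.7 in mTORi-HDL, with 0 of 9 genes below 0, a median of 0.474 and 1 called, Flt1, which was higher. The macrophage list averaged 10850 and 9571 CPM in sum, with 12 of 16 genes below 0 and a median of -0.378. Of its genes Aif1 was called lower and Itgam higher, and 11 had an unadjusted p under 0.05. The T and NK cell list averaged 54.98 and 26.89 CPM in sum, with a median of -1.189 over 3 tested genes. The smooth muscle list averaged 328.3 and 507.5 CPM in sum, with a median of 0.668. Of its 6 tested genes 0 were below 0, 0 were called and 2 had an unadjusted p under 0.05. Under TRAF6i-HDL against PBS the smooth muscle median was 0.437, with 1 of 6 genes below 0 and 0 called. The part of these cell types in the values of the subunit genes was not tested.

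**Figure D2:**
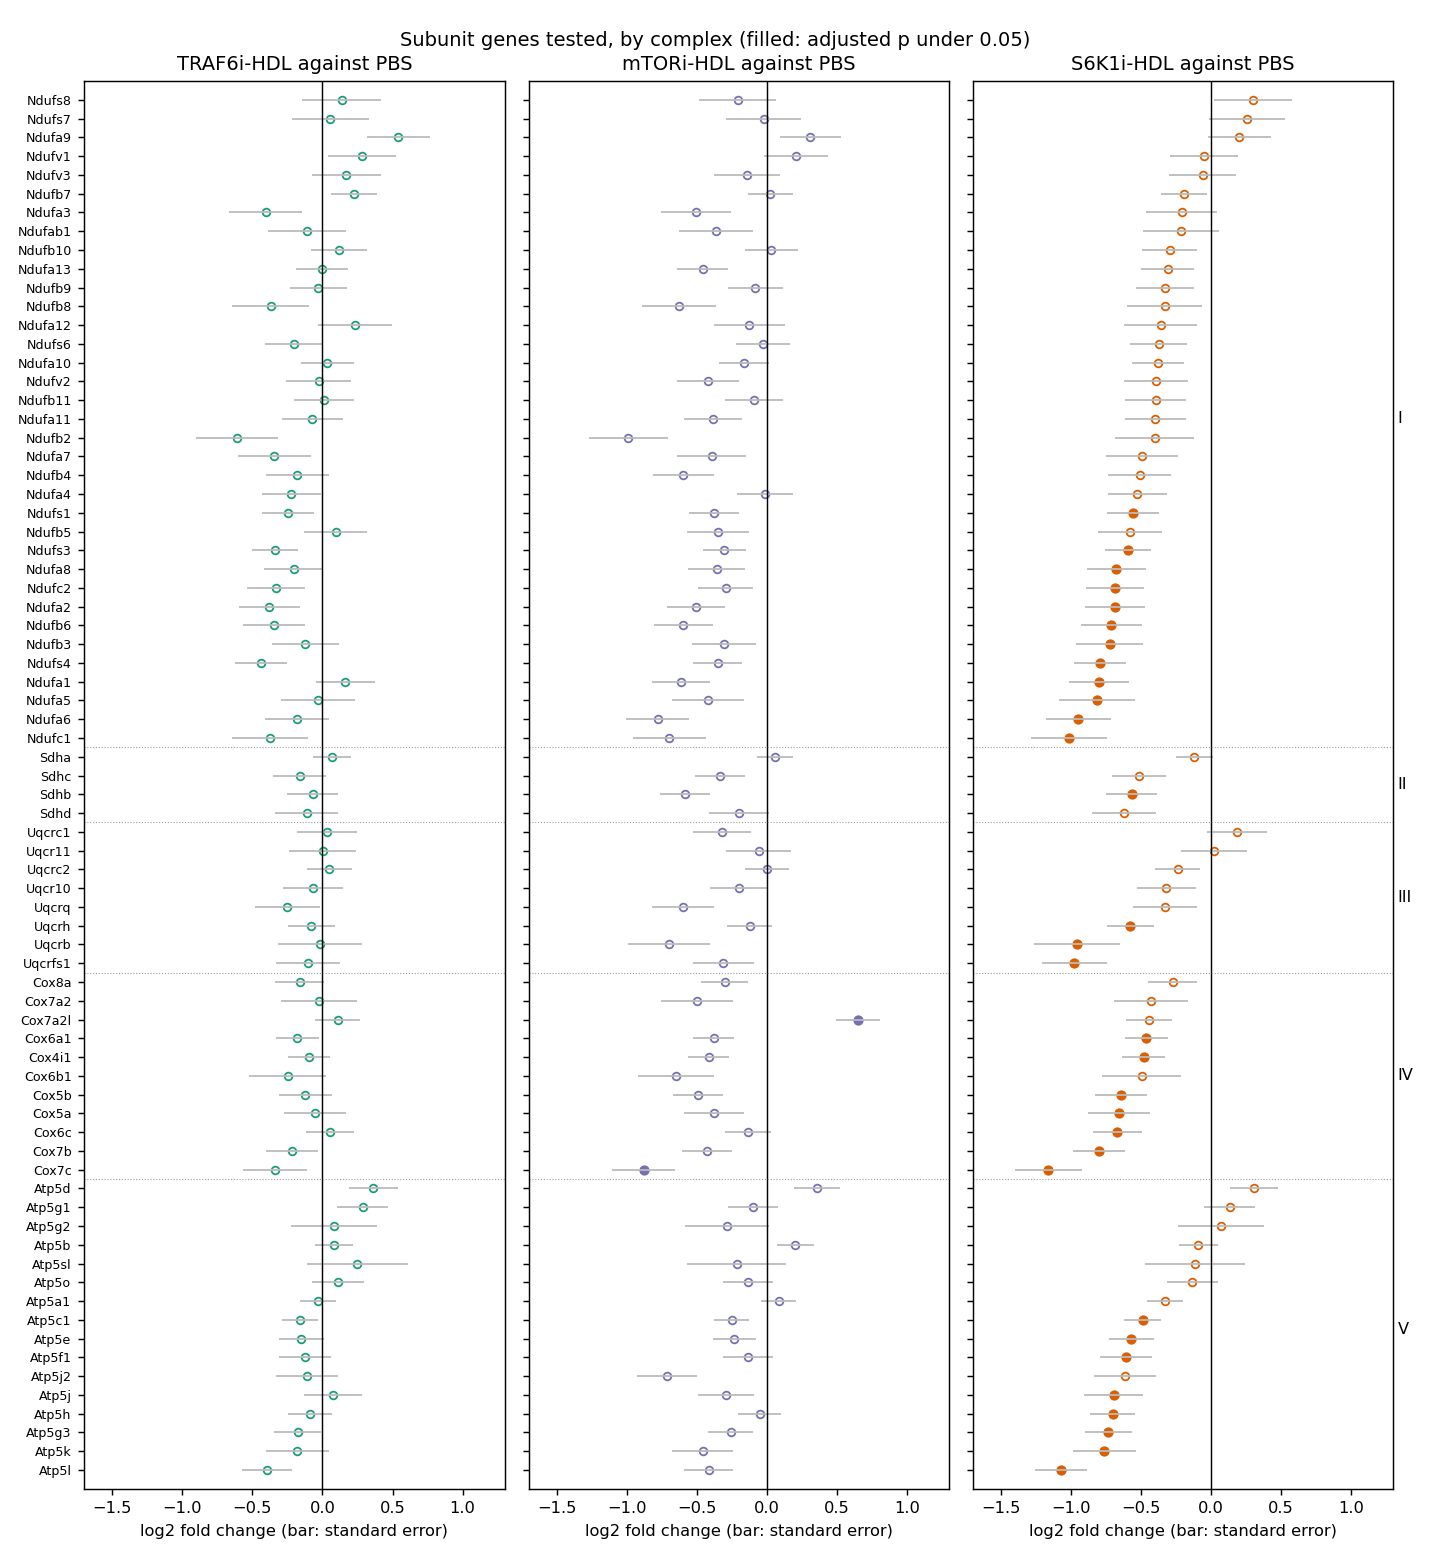
Log2 fold change against PBS (x axis, with SE) of the tested subunit genes, leaving out 1 complex I gene that is not reported, grouped by complex I to V, in each inhibitor group. Filled points passed an adjusted p of 0.05: 31 under S6K1i-HDL, all of them lower, 2 under mTORi-HDL and 0 under TRAF6i-HDL.

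Under S6K1i-HDL against PBS, 31 of the 75 genes fell and 0 rose, 41.3% of those tested, where 6.47% of all genes were called lower and 5.46% higher. By complex the falls were 12 of 36 in complex I, 1 of 4 in complex II, 3 of 8 in complex III, 7 of 11 in complex IV and 8 of 16 in complex V. The median log2 fold change was -0.483 over the 75 and 0.003 over all genes, and 67 of 75 were below 0. By complex the median was -0.398, -0.542, -0.326, -0.496 and -0.53 in the same order. The count was 15 without PBS 3 and 20 without S6K1i-HDL 3, the library omissions that moved it by over 1.5 times. The macrophage list had a median of -0.022 with 1 of 16 genes called, Lgals3, which was lower, and 7 at an unadjusted p under 0.05. The smooth muscle list summed to 328.3 CPM in PBS and 505.4 in S6K1i-HDL on average, with a median of 0.768. Of its 6 tested genes 0 were below 0, 1 was called, Smtn, which was higher, and 3 had an unadjusted p under 0.05. The endothelium list had a median of -0.116, with 0 of 9 genes called and 5 at an unadjusted p under 0.05. Over all genes 27% had an unadjusted p under 0.05. The part of these cell types in the result was not tested. The Rn45s share averaged 12.95% in PBS and 37.0% in S6K1i-HDL. With the log2 Rn45s share as a term, 0 of the 75 and 38 of all genes passed, and the median of the subunit genes was -0.168.

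Among the genes of complex IV, whose catalytic core is encoded in mitochondrial DNA, Cox7c had 43.1 to 130 CPM with a median of 63.9 in S6K1i-HDL, against 88.5 to 304 in PBS. Of the S6K1i-HDL samples, 6 of 9 lay below the PBS range. It fell by 1.16 ± 0.24 (adjusted p = 0.00204), and 53% of its 50-base words occur in other genes. Cox7b, another small subunit, had 40.4 to 103 CPM with a median of 55.4 in PBS and 15.8 to 49.6 with a median of 28.5 in S6K1i-HDL, and fell by 0.80 ± 0.19 (adjusted p = 0.00379). Cox4i1, Cox5a, Cox5b, Cox6a1 and Cox6c also fell, by 0.46 to 0.67. Of 12 alternatives and 39 single-library omissions, the call of Cox5a was kept in 3 and 27, that of Cox6a1 in 6 and 27, and that of Cox4i1 in 8 and 33. Cox7a2l had 55.3 to 77.9 CPM with a median of 70.2 in S6K1i-HDL, of which 1 of 9 samples lay below the PBS range, and a log2 fold change of -0.45 ± 0.16 that did not pass (0.0618).

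Among the complex V genes, Atp5l had 126 to 318 CPM with a median of 190 in PBS and 47.4 to 140 with a median of 94.7 in S6K1i-HDL. Of the S6K1i-HDL samples, 8 of 9 lay below the PBS range and 9 of 9 below the PBS mean. It fell by 1.07 ± 0.18 (adjusted p = 2.39e-04). Of its 50-base words 84.8% also occur in other genes, so its counts are uncertain. Reads that the authors' counting held as not unique were counted for no gene. Atp5g3, a c-ring subunit, shares 0% of its words and had 63.2 to 160 CPM with a median of 102 in PBS against 31.6 to 90.3 with a median of 57.7 in S6K1i-HDL, a fall of 0.73 ± 0.17 (0.00349). Atp5c1, the gamma subunit of the central stalk, fell by 0.49 (adjusted p = 0.0106). Atp5h, the d subunit of the peripheral stalk, fell by 0.70 ± 0.16 (0.00343) from 50.6 to 137 CPM in PBS to 31.6 to 61.7, and shares 50.5% of its words. By role, 3 of 4 peripheral stalk genes, 2 of 3 small membrane genes, 2 of 5 head and central stalk genes and 1 of 3 c-ring genes fell. Atp5g1 and Atp5g2, the other c-ring genes, had 0.13 ± 0.18 and 0.07 ± 0.31, and Atp5b, the catalytic beta subunit, -0.09 ± 0.14.

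Among the complex I genes, 10 of 29 accessory and 2 of 7 core subunits fell, and the median of the accessory subunits was -0.403. Ndufs4, an accessory subunit of the electron-input arm, had 0 to 41.3 CPM with a median of 30.2 in PBS, the 0 being in PBS 9. It had 7.91 to 23.3 CPM with a median of 16.6 in S6K1i-HDL and fell by 0.79 ± 0.19 (adjusted p = 0.00407). Ndufa6, an accessory subunit of the same arm, fell by 0.95 ± 0.23 (0.00594), from a median of 19.9 CPM to 10.3. The core genes Ndufs1 and Ndufs3 fell by 0.56 ± 0.19 (0.0395) and 0.59 ± 0.16 (0.013). The call of Ndufs1 was kept in 5 of 12 alternatives and 29 of 39 omissions, and that of Ndufs3 in 10 and 39. Of the other core genes, Ndufs7 had 0.26, Ndufs8 0.30, Ndufv1 -0.05 and Ndufv2 -0.40, with adjusted p from 0.259 to 0.964.

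In complex III, Uqcrfs1, the Rieske iron-sulfur protein, had 17.5 to 50.6 CPM with a median of 24.1 in PBS and 0 to 15.9 with a median of 12.5 in S6K1i-HDL. The measured values of these 2 groups did not overlap, but the 0 was in S6K1i-HDL 1, where a count of 0 allows up to 23.7 CPM, above the lowest PBS value. It fell by 0.98 ± 0.23 (adjusted p = 0.00435), and its 50-base words are all its own. Uqcrb and Uqcrh, small subunits, fell by 0.95 ± 0.31 (0.0369) and 0.58 ± 0.17 (0.0209), and Uqcrc1 and Uqcrc2, the core proteins, had 0.18 ± 0.21 and -0.24. In complex II, Sdhb had 12.6 to 60.1 CPM with a median of 27.4 in PBS and 7.91 to 27.5 with a median of 20.1 in S6K1i-HDL, and fell by 0.57 ± 0.18 (0.0338). The call of Sdhb was kept in 6 of 12 alternatives and 32 of 39 omissions, and that of Uqcrb in 7 and 29. The other 3 did not pass, at -0.12 ± 0.13 for Sdha, and at -0.52 ± 0.19 and -0.63 ± 0.23 for the membrane anchors Sdhc and Sdhd.

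**Figure D3:**
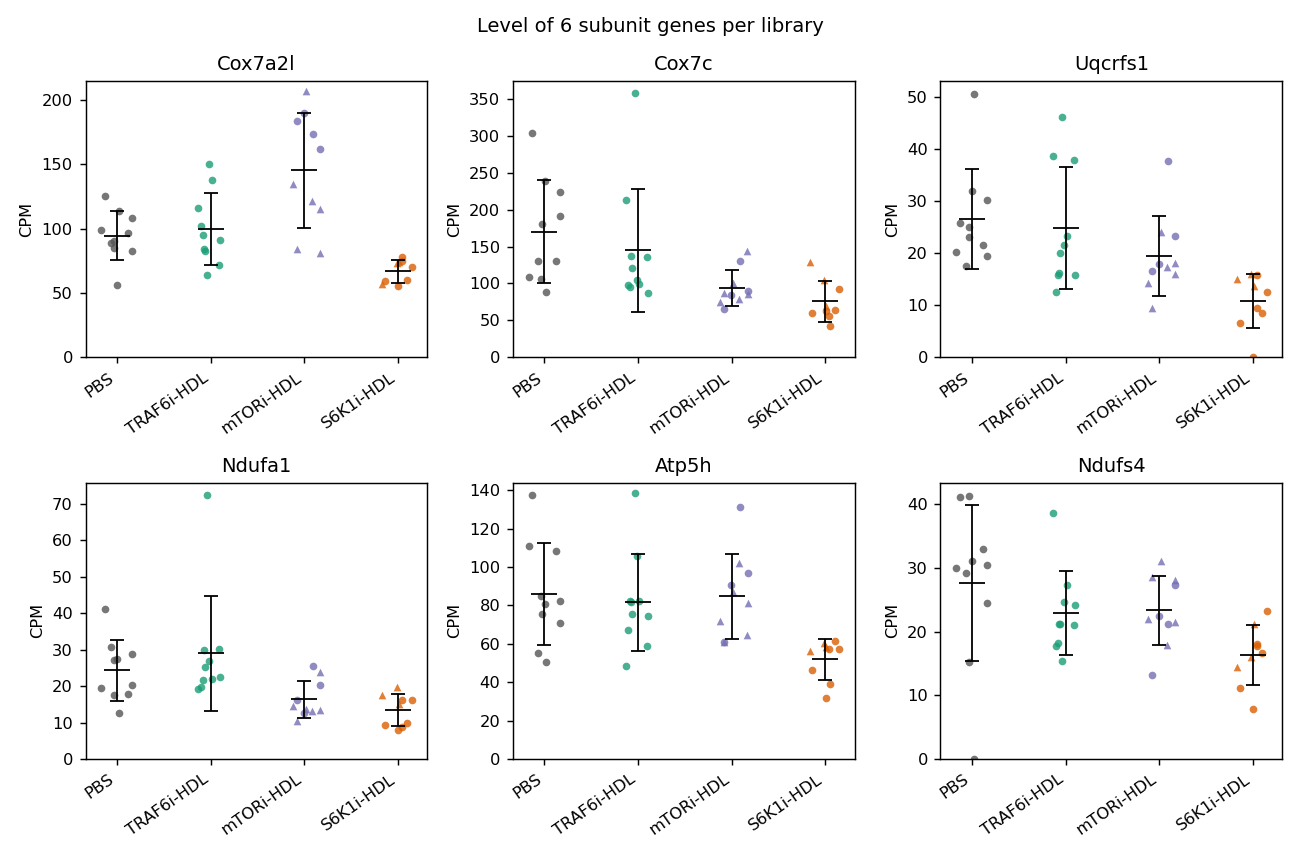
CPM per library of 6 subunit genes (points; triangles as in the plot of summed levels), with group means and SD (bars). Cox7a2l is highest in mTORi-HDL (median 148 CPM) and the measured values of Uqcrfs1 do not overlap between PBS and S6K1i-HDL (its 0 in S6K1i-HDL 1 allows up to 23.7 CPM, within the PBS range), while the other genes overlap between most groups.

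The sets that the series lists apart were compared with PBS separately. In S6K1i-HDL replicates 1 to 6 against PBS, 39 genes fell (14.2% of all genes called either way) with a median of -0.675, and in replicates 7 to 9, 0 were called (0.00961% of all genes; 15 at an unadjusted p under 0.05, against 10.5% of all genes) with a median of -0.248 and 58 of 75 below 0. The difference between the sets was tested directly and 0 subunit genes passed (0.0192% of all genes), with 16 at an unadjusted p under 0.05 (5.77% of all genes) and 70 of 75 lower in replicates 1 to 6. The mean summed level was 1828 ± 233.1 CPM (SD, n = 6) in replicates 1 to 6 and 2413 ± 165.6 (n = 3) in 7 to 9, against 2962 in PBS. Replicates 7 to 9 are 3 libraries, which limits what can be called. Their Rn45s shares were 27.2%, 42.1% and 14.5%, against 35% to 47.5% in replicates 1 to 6. Set and Rn45s share cannot be fully told apart. For mTORi-HDL against PBS, replicates 1 to 4 had 1 gene called, Cox7a2l, which was higher (1.08% of all genes). Their median was -0.285, with 61 of 75 below 0. Replicates 5 to 10 had 1 called, Ndufa6, which was lower (1.68% of all genes). Their median was -0.322, with 63 of 75 below 0.

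Between inhibitor groups, Cox7a2l had the smallest adjusted p. It was higher in mTORi-HDL than in S6K1i-HDL by 1.10 ± 0.16 (log2; adjusted p = 6.72e-06, edgeR), in 10 of 10 samples above the S6K1i-HDL mean, and the 2 groups did not overlap. It was higher in mTORi-HDL than in TRAF6i-HDL (63.8 to 151 CPM, median 93.2) by 0.54 ± 0.15 (0.0359), a call kept in 29 of the 39 single-library omissions and lost with DESeq2 size factors or only the groups compared (adjusted p up to 0.078). Against PBS it was called in replicates 1 to 4 of mTORi-HDL, at 0.94 ± 0.19 (0.00358; 1.08% of all genes), and not in replicates 5 to 10, at 0.43 ± 0.17 (0.17; 1.68%). The difference between these sets did not pass (0.461), nor did that of any other subunit gene (0.355% of all genes). Each set was called against the S6K1i-HDL replicates listed with it (2.48e-05 and 0.0391; 2.92% and 1.2% of all genes). Of its 50-base words 19.8% occur in other genes.

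Between mTORi-HDL and S6K1i-HDL, 5 genes were called, all higher in mTORi-HDL, where 6.18% of all genes were called, 3.5% higher and 2.68% lower: Cox7a2l, Atp5h by 0.65 ± 0.16 (adjusted p = 0.00556), Atp5l by 0.66 ± 0.18 (0.0165), Atp5a1 by 0.42 ± 0.12 (0.0313) and Cox6c by 0.54 ± 0.17 (0.0424). Without mTORi-HDL 1, mTORi-HDL 7 or S6K1i-HDL 2, 3 genes were called, and without mTORi-HDL 8, 8 were. By the sets listed together, mTORi-HDL 1 to 4 against S6K1i-HDL 1 to 6 had 5 called, all higher (2.92% of all genes). The median there was 0.3, with 12 of 75 below 0. In mTORi-HDL 5 to 10 against S6K1i-HDL 7 to 9, only Cox7a2l was called (1.2% of all genes). The median there was -0.075, with 42 of 75 below 0. Over all samples of the 2 groups, 4 of 9 endothelium genes were called higher in mTORi-HDL (Emcn, Cdh5, Tek and Pecam1, by 0.88 to 0.93). Of 16 macrophage genes C1qa, Cd68 and Laptm5 were called lower and Itgam higher, and of 3 tested T and NK cell genes Cd4 was called lower. The part of these cell types in the result was not tested. Between TRAF6i-HDL and S6K1i-HDL, 6 were called, all higher in TRAF6i-HDL, where 1.59% of all genes were called, 1.2% higher and 0.394% lower: Ndufa1, Cox6c, Atp5h, Uqcrfs1, Atp5j and Atp5l, by 0.62 to 0.97. Without TRAF6i-HDL 8 or S6K1i-HDL 3, 1 gene was called. Without TRAF6i-HDL 3, S6K1i-HDL 2 or S6K1i-HDL 6, 2 were, and without TRAF6i-HDL 6, S6K1i-HDL 4 or S6K1i-HDL 5, 3 were. Without TRAF6i-HDL 9 or S6K1i-HDL 7, 10 were, and with the Rn45s share as a term 0 were. Ndufa1, an X-linked accessory subunit of complex I, had 19.4 to 72.5 CPM with a median of 23.9 in TRAF6i-HDL and 7.91 to 19.8 with a median of 15.2 in S6K1i-HDL, and was higher by 0.97 ± 0.21 (0.0111). It was also higher than in mTORi-HDL (10.4 to 25.6, median 14.1) by 0.78 ± 0.20 (0.0223), and its highest value was in TRAF6i-HDL 8, whose omission ended that call (0.0594). Between TRAF6i-HDL and mTORi-HDL, Ndufa1 and Cox7a2l were the 2 called, where 2.92% of all genes were, 1.56% higher in TRAF6i-HDL and 1.36% lower. Of 16 macrophage genes, 6 were called higher in TRAF6i-HDL (Aif1, C1qa, C1qb, C1qc, Cd68 and Laptm5) and 1 lower (Itgam), and Cd4 was called higher. Their part in the result was not tested. These comparisons and those with PBS share samples. A difference among the 4 groups was called for 19 of the 75 (12.5% of all genes), 4 in complex I, 1 in II, 2 in III, 6 in IV and 6 in V.

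Several subunits have a widely expressed form and a form known from particular tissues or conditions, and the latter were at or near 0. In mean CPM per kilobase in PBS, Cox4i1 had 88.3 and Cox4i2 1.06, Cox6a1 had 109 and Cox6a2 1.60, and Cox6b1 had 117 and Cox6b2 1.35. On the same scale Cox8a had 73.0 and Cox8b 0.477, and Ndufa4 had 98.8 and Ndufa4l2 0.612. Within the Cox7a set, Cox7a2l had 87.9, Cox7a2 27.9 and Cox7a1, the form of heart and skeletal muscle, 2.34. The c-ring genes, which encode the same mature protein, had 143.7 for Atp5g3, 46.8 for Atp5g2 and 32.9 for Atp5g1. Of the 50-base words of Atp5g2, 100% occur in other genes. Cox7b2 and Cox8c had 0 counts in 39 libraries. Ndufs5 also had 0 counts in 39 libraries, and 35.6% of its 50-base words occur in another gene.

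The lists of related genes, chosen with results of these data known, gave the following counts under S6K1i-HDL against PBS, where 6.47% of all genes were called lower and 27% had an unadjusted p under 0.05. Of 33 assembly factors 1 fell, Cox17, a copper chaperone of complex IV, by 0.98 ± 0.25 (adjusted p = 0.00807), with a median of -0.096 over the list. Of 13 electron carriers and coenzyme Q genes 2 fell, Cycs, cytochrome c, by 0.70 ± 0.19 (0.0141), and Etfa, an electron transfer flavoprotein subunit, by 0.60 ± 0.19 (0.0363). Of 17 tricarboxylic acid cycle genes 0 were called, and of 8 regulators of mitochondrial genes 0, with 2 in each list at an unadjusted p under 0.05, and medians of -0.036 and 0.033. Of 8 membrane carriers and inhibitor genes 4 fell, with a median of -0.499 over the list. The 3 with the smallest p were Slc25a3, the phosphate carrier, by 0.83 ± 0.19 (0.00328), Slc25a4, an ADP/ATP carrier, by 0.89 ± 0.22 (0.00786), and Atpif1, an inhibitor of ATP synthase, by 0.71 ± 0.22 (0.0296).

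Subunit transcripts were short, and in S6K1i-HDL against PBS the values of all genes went with transcript length. Tested subunit genes had a median transcript of 745 bases and all genes 2996. In S6K1i-HDL against PBS, genes of up to 700 bases had a median log2 fold change of -0.398 with 25.9% of 293 called lower, and the 33 subunit genes of that length had -0.496 with 16 lower. The 15 subunit genes of 700 to 1000 bases had a median of -0.511 against -0.293 over all 439 genes, and the 12 of 1000 to 1500 bases -0.529 against -0.194 over 917. With offsets for each library's trend on length and GC content, 4 of the 75 passed and the median was -0.233, against 0.006 over all genes. The share of all genes that passed with the offsets is not given here. Whether calls dropped over all genes alike therefore cannot be seen from this count. Falls were called in 10 of 30 genes that shared no 50-base word, 12 of 26 that shared up to 20% and 9 of 19 that shared more. By promoter, falls were called in 8 of 16 genes with NRF1 letters and 18 of 48 without, and in 10 of 16 with ETS letters and 16 of 48 without, given as a description. The part of transcript length in the result was not tested beyond the offsets.

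**Figure D4:**
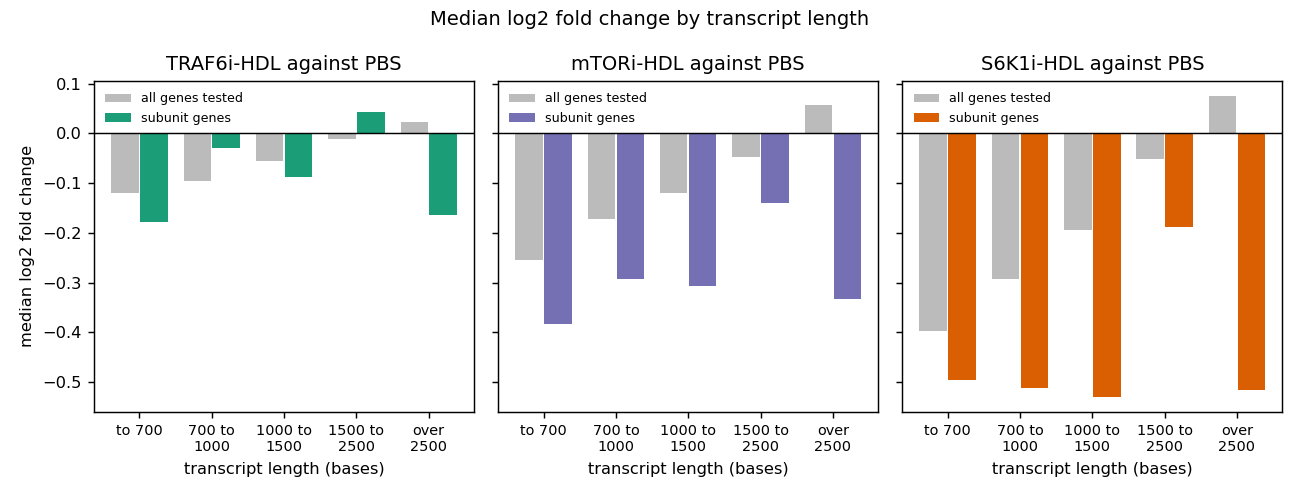
Median log2 fold change against PBS by transcript length, for all tested genes (grey) and subunit genes (coloured), in each inhibitor group. Under S6K1i-HDL the median of all genes runs from -0.398 up to 700 bases to 0.075 over 2500 bases. That of the subunit genes is -0.496, -0.511, -0.529, -0.188 and -0.516 from short to long, with 3 genes over 2500 bases.

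The relation between the summed subunit level and the Rn45s share was computed within each group. It passed in TRAF6i-HDL and, by rank, in mTORi-HDL. In TRAF6i-HDL Pearson's r of the log2 values was -0.953 (permutation p = 0.00082, adjusted over 4 groups 0.00328, n = 10) and Spearman's rho -0.83 (adjusted p = 0.00996), with r = -0.817 without the 2 samples farthest from the median. In mTORi-HDL r was -0.616 (adjusted p = 0.0778) and rho -0.879 (0.006), with r = -0.962 without the 2 farthest. In PBS r was -0.598 (adjusted p = 0.0778) and rho -0.527 (0.166), with r = -0.625 without them. In S6K1i-HDL r was -0.589 (exact permutation p = 0.0778, n = 9) and rho -0.467 (0.213). Without the 2 farthest r was 0.214, so the relation there rests on those samples. They were S6K1i-HDL 9 (Rn45s share 14.5%) and S6K1i-HDL 7 (27.2%), both among the replicates 7 to 9 that are listed apart. Beyond the fit with the share as a term, its part in the falls under S6K1i-HDL was not tested.

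**Figure D5:**
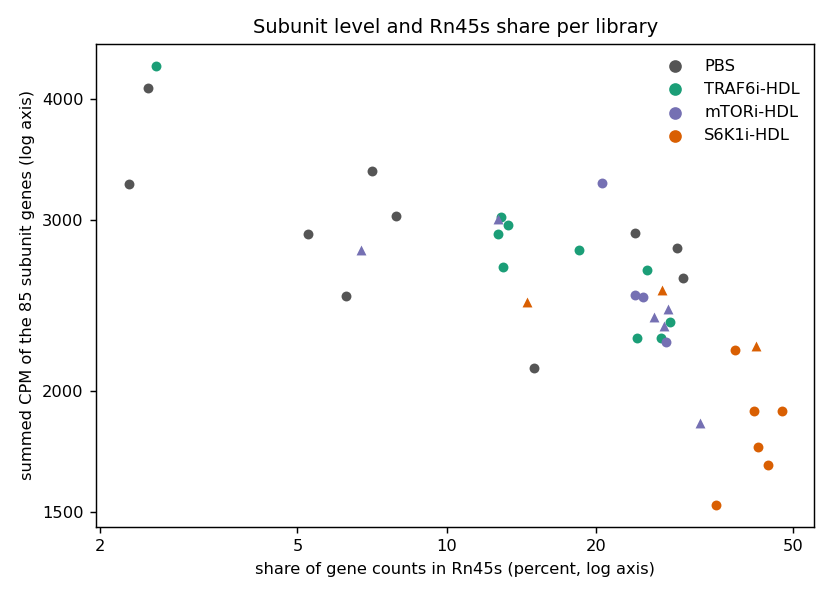
Summed CPM of the 85 subunit genes against the share of gene counts in Rn45s (both log axes), 1 point per library, coloured by group (triangles as in the plot of summed levels). Within groups r is -0.953 in TRAF6i-HDL, -0.616 in mTORi-HDL, -0.598 in PBS and -0.589 in S6K1i-HDL, the last being 0.214 without 2 samples, and most S6K1i-HDL libraries lie at the high-Rn45s end.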

How the data were processed

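RNA from laser-captured plaque areas was amplified (Ovation Pico WTA) and sequenced, per the labels' protocols. The deposited values are raw read counts per gene symbol, 1 file per sample, made by the authors with TopHat2 2.1.0, Bowtie2 2.2.8 and HTSeq 0.6.1, per the submitters' processing notes. Those notes name the human build hg19, although the symbols are mouse. The mouse build, annotation and strand setting are not given in the sources used here. The 5 closing lines of each file, which name no gene, stayed out of library sizes and tests. They held 42.8% to 60.1% of reads as no feature and 11.7% to 21.6% as not unique.

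Groups came from the sample titles. Genes were filtered with filterByExpr and scaled by TMM, and all 39 libraries were fitted by group with edgeR 4.0.16 (robust quasi-likelihood, R 4.3.3) over 6 pairs of groups and 1 test among the 4 groups. p-values were adjusted by Benjamini-Hochberg over 10411 genes with a threshold of 0.05. CPM is TMM-scaled, and an interval is 1.96 SE on each side, the SE being the log2 fold change divided by the square root of F. Total counts set the precision, and reads carry no molecular identifiers. Correlations were tested by permutation in Python 3.11.15 with scipy 1.17.1. The scripts were tested on simulated data. Of the genes given a log2 change of 0.5 in S6K1i-HDL there, 15.2% were called against PBS. Of those given a change of 1, 72.4% were called. An uncalled gene is therefore not shown to be unchanged. No pair of libraries had identical counts. Lengths, GC content and shared 50-base words came from GENCODE M21, and promoters from RefSeq GRCm38.p6.

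The genes and lists were chosen with earlier results of these data known. Named genes were those past the threshold (the 10 with the smallest p where more passed), the smallest p per complex, the Sdh genes, isoform sets and the 3 highest means. Further genes were named by role after their values were seen. Alternatives were DESeq2 1.42.0 and its size factors, limma 3.58.1 (voom), other filters and thresholds, the replicate block, terms for detected genes and Rn45s share, length and GC offsets, and omitted libraries. Leaving Rn45s out of the counts, and leaving out genes with 20% or more shared words, were added after seeing the data. The values of 1 complex I gene are not reported here.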

Additional observations from a re-analysis of the deposited data

Results flagged for a closer look

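In 20 of 80 groups of libraries examined, the highest or lowest library stood apart from the others. Chance gives about 1 in 20 for independent groups, but these share libraries and the sums contain the single genes. The 20 cases are therefore not separate events and cannot be set against that rate. The library TRAF6i-HDL 8 accounted for 13 of them, always as the highest of its group. Its summed CPM was 4326 for all subunit genes, where the next library had 3020, and 1044 for complex I, 338.5 for complex II, 483.6 for complex III, 1134 for complex IV and 1326 for complex V. Its CPM was 184.7 for Atp5g3, 94.53 for Atp5j, 327.6 for Atp5l, 217.6 for Cox6c, 120.9 for Cox7b, 358.3 for Cox7c and 72.54 for Ndufa1. Its Rn45s share was 2.59%, the lowest of its group, and the part of that share in these values was not tested.

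PBS 3 was the highest of its group for Atp5j (84.1 CPM) and Cox7b (103 CPM). The 3 libraries under 200000 counts gave single values apart from their groups: S6K1i-HDL 1 was lowest for Atp5a1 (55.34 CPM) and Atp5j (0 CPM, where 3 counts would be 23.7), TRAF6i-HDL 7 was highest for Ndufs4 (38.71 CPM), and PBS 9 was highest for Uqcrfs1 (50.56 CPM). The library mTORi-HDL 1 was highest of its group for Uqcrfs1 (37.71 CPM).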

How the results depend on the processing

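Counts are of the 75 tested subunit genes. Shares over all genes are not given beside them here, so a change that also hit all genes cannot be seen from these counts. Under TRAF6i-HDL against PBS, 0 were called in each alternative and omission. The 31 under S6K1i-HDL against PBS became 11 with a term for detected genes, 0 with the Rn45s share and 4 with length and GC offsets, and ran from 15 to 34 as single libraries were left out. The other alternatives gave 21 to 40. The 2 under mTORi-HDL against PBS became 4 with DESeq2 size factors, without libraries under 200000 counts or with the sets apart, 6 with DESeq2 or voom, 1 with no filter, with detected genes or without shared words, 0 with the Rn45s share and 21 at an adjusted p under 0.2, and ran from 1 to 6 over omissions. The 2 between TRAF6i-HDL and mTORi-HDL became 1 with size factors or only the groups compared, 4 with voom and 6 at 0.2, and 0 (without TRAF6i-HDL 8) to 2. The 6 between TRAF6i-HDL and S6K1i-HDL became 11 with DESeq2, 22 with voom, 2 with detected genes, 0 with the Rn45s share or the offsets, 3 with the sets apart and 25 at 0.2, and 1 (without TRAF6i-HDL 8 or S6K1i-HDL 3) to 10. The 5 between mTORi-HDL and S6K1i-HDL became 3 with size factors, offsets or without shared words, 13 with voom, 9 with only the groups compared and 15 at 0.2, and 3 to 8. The 19 among the 4 groups became 29 with voom, 11 with detected genes, 3 with the Rn45s share, 7 with offsets and 41 at 0.2, and 13 to 27. The causes were not tested.

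No pairing by replicate number was seen. Deviations from the group means had a mean correlation of 0.0125 for the same number (-0.239 to 0.308 over 57 pairs) and 0.00139 for different numbers. Of 39 libraries, 5 were closest to their own number. Such low correlations do not exclude a pairing, and the labels state none. With the replicate block, 24 genes were called under S6K1i-HDL against PBS, 2 between TRAF6i-HDL and S6K1i-HDL and 3 between mTORi-HDL and S6K1i-HDL, and Atp5g2 under TRAF6i-HDL turned to -0.069.

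The signs that turned were all of uncalled genes. With the Rn45s share they were, under TRAF6i-HDL, Uqcrq 0.020, Sdhb 0.016, Sdhd 0.143, Cox4i1 0.015, Cox6a1 0.003, Cox6b1 0.159, Cox7a2 0.271 and Cox8a 0.036, under mTORi-HDL, Sdhd 0.219, Ndufa4 0.041 and Atp5g2 0.226, and under S6K1i-HDL, Sdhd 0.014, Cox6b1 0.376, Cox7a2 0.280 and Cox8a 0.174. With offsets they were Cox7a2 0.052 and Ndufa4 0.018 under TRAF6i-HDL, Ndufa4 0.311 and Atp5g1 0.003 under mTORi-HDL, and Ndufa4 0.089 under S6K1i-HDL. With detected genes they were Sdhd 0.017 and Ndufa4 0.042 under mTORi-HDL, and Atp5g1 -0.060 and Atp5g2 -0.090 under S6K1i-HDL. Ndufa4 under mTORi-HDL was 0.011 with voom, 0.015 with no filter and 0.025 with the sets apart, Sdhb under TRAF6i-HDL 0.025 with voom, and Cox7a2 there 0.000 with DESeq2. Over omissions under TRAF6i-HDL, Sdhb ran from -0.189 to 0.052, Sdhd from -0.308 to 0.007, Cox7a2 from -0.174 to 0.090, Atp5g2 from -0.158 to 0.217 and Atp5a1 from -0.063 to 0.032. Ndufa4 under mTORi-HDL ran from -0.222 to 0.095 and Atp5g2 under S6K1i-HDL from -0.029 to 0.209.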
